A study of Homo sapiens with 2 samples.

Results

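The ARP2/3 complex builds branched actin filaments, and WASL and WASF2 are activators that turn it on at membranes. The genes were taken by name, as ACTR2, ACTR3, ARPC1A, ARPC1B, ARPC2, ARPC3, ARPC4 and ARPC5 for the complex and WASL and WASF2 for the activators, and each was read through every probe set that the platform annotation pairs with that symbol alone. This gave 9 of the 10 genes and 23 probe sets, of 19775 genes and 41097 probe sets with 1 symbol. No probe set is paired with ACTR2 in the annotation used here, so ACTR2 was not analysed, and the complex was read through 7 of its 8 listed subunits.

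The samples were cultures of AsPC-1, a human cell line from pancreatic ductal adenocarcinoma (PDAC). They received either control siRNA or siRNA against PGR, the progesterone receptor, and total RNA from each was put on 1 array that reads the 3' end of transcripts. There is 1 array per condition and no replicate, so no value has an error between cultures, and no test or p-value was possible. The study asked whether PGR affects macropinocytosis, the uptake of fluid in large vesicles closed by actin ruffles, and pointed to CDC42, a GTPase that acts on WASL.

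Branched actin is made when ARP2/3 binds the side of an existing filament and starts a daughter filament from its pair of actin-related proteins. On its own the complex is nearly inactive. Activators of the WASP and WAVE families bring it actin monomers: WASL answers to CDC42 and phosphoinositides, and WASF2 sits in the WAVE regulatory complex and answers to RAC1. The network they build pushes out lamellipodia, membrane ruffles and macropinocytic cups.

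The labels state PGR interference as the only difference between the arrays and name no duplex. The duplexes that the study lists for PGR knockdown are therefore shown. The source does not say which of them was used for the array. The capitals mark the seed of the antisense strand, bases 2 to 8.
si-PGR-1 sense: ggcaauugguuugaggcaatt
si-PGR-1 antisense: uUGCCUCAaaccaauugcctt
si-PGR-2 sense: gcugcacaauuacccaagatt
si-PGR-2 antisense: uCUUGGGUaauugugcagctt

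The arrays give no usable check of the knockdown. The brighter PGR probe set read 16.1 on the labelled control array and 73.3 on the labelled PGR siRNA array, and the other read 1.53 and 4.80. All lie under the signal floor of 97.9 intensity units, the median of all values of probe sets with 1 symbol, and their order goes against the labels. The arrays are therefore called by their labels throughout, and a difference is always the labelled PGR siRNA array minus the labelled control array on the scale log2(intensity + 1). The arrays had been scaled to a common level, with a trimmed mean of 500.1 on each. The ductal markers EPCAM, CDH1, KRT7, KRT8, KRT18, KRT19 and MUC1 passed the floor on both arrays, CEACAM6 on the labelled control array only and CEACAM5 on neither. Of 4 leukocyte, 4 endothelial and 3 acinar markers with a probe set, none passed on both arrays, and of 6 fibroblast markers COL1A1 alone did. The markers CD14, PECAM1 and DCN passed on the labelled control array only. COL1A1 read 299 on each array, above the ductal markers KRT7 (189 and 182) and MUC1 (122 and 174, labelled control array first). A level here is relative mRNA in a culture, so a smaller share of cells with a transcript and less of it per cell cannot be told apart.

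By the brightest probe set of each gene, the mRNAs of the 7 measured subunits and of both activators read nearly the same on the arrays. All 9 differed by at most 1.17-fold, from -0.08 for ARPC5 to 0.23 for ARPC3. None of the 9 reached 1.5-fold in either direction. Other probe sets past the floor for ACTR3, ARPC4, WASL and WASF2 differed by more, as given below. Among all 11614 genes that passed the floor on at least 1 array, 3.65% reached 1.5-fold upward and 4.72% downward, so that a list of 9 genes with none past this fold does not stand apart from the background. The median of the 9 was 0.047, beside 0.021 for all 11614 genes.

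**Figure D1:**
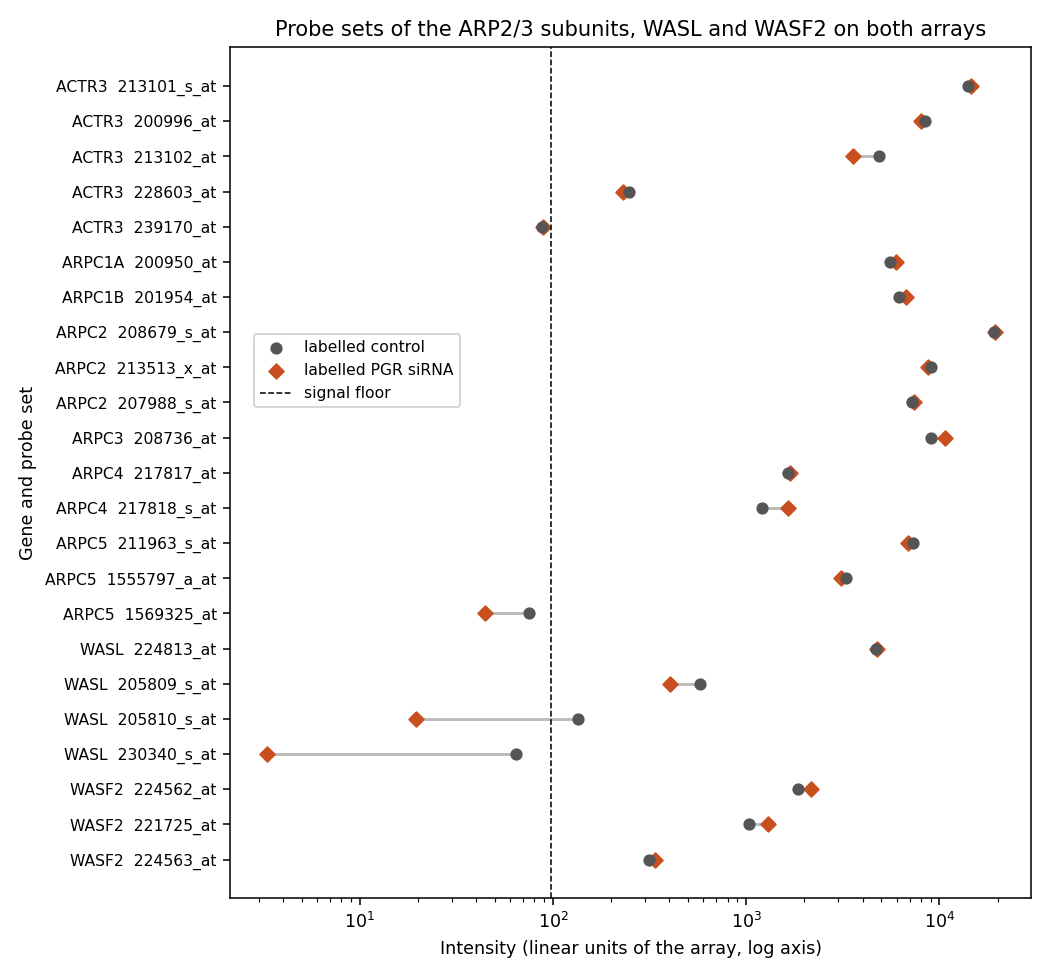
Intensity of each of the 23 probe sets (log axis) on the labelled control array (grey circles) and the labelled PGR siRNA array (orange diamonds), with the signal floor of 97.9 as a dashed line. The paired points nearly coincide for most probe sets, and the widest gaps are those of the WASL probe sets at or near the floor.

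Of the actin-related proteins that form the start of the daughter filament, ACTR3 was read by 5 probe sets. Its brightest, 213101_s_at, read 14082 on the labelled control array and 14551 on the labelled PGR siRNA array, a difference of 0.05. Probe set 200996_at read 8444 and 8067 (-0.07), and 228603_at read 247 and 231 (-0.09). These 3 lay close to no difference. Probe set 213102_at stood apart from them, with 4869 on the labelled control array and 3582 on the labelled PGR siRNA array, 1.36-fold lower at -0.44. It is listed for the same source sequence as 213101_s_at, so probe sets designed on 1 sequence record gave 0.05 and -0.44. The last ACTR3 probe set, 239170_at, was under the floor on both arrays, at 87.6 and 88.3.

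ARPC1A and ARPC1B are alternative forms of the subunit that helps the complex meet its activators, and their genes are neighbours on chromosome 7 in the RefSeq annotation. Each was read by 1 probe set. ARPC1A read 5551 on the labelled control array and 5979 on the labelled PGR siRNA array, a difference of 0.11. ARPC1B read 6138 and 6694, a difference of 0.12. Both forms were thus slightly higher on the labelled PGR siRNA array, by nearly the same amount, and neither has another probe set to compare with.

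ARPC2 and ARPC4 form the core on which the other subunits sit. The 3 probe sets of ARPC2 read 19134 and 19324 (0.01), 9017 and 8699 (-0.05), and 7251 and 7372 (0.02), with the labelled control array first. They spanned no more than 0.076 on the log2 scale and lay on both sides of 0. ARPC4 was less uniform. Its brighter probe set, 217817_at, read 1654 and 1688, a difference of 0.03, whereas 217818_s_at read 1207 and 1641, a difference of 0.44 or 1.36-fold higher on the labelled PGR siRNA array.

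A further 4 probe sets name ARPC4 together with the neighbouring gene TTLL3, the read-through transcript ARPC4-TTLL3 or both, and fell outside the rule because they do not name ARPC4 alone. Probe set 211672_s_at, for ARPC4 and the read-through transcript, read 1235 on the labelled control array and 1582 on the labelled PGR siRNA array, a difference of 0.36. The 3 that also name TTLL3 were much fainter and near the floor, and differed by 0.06, 0.11 and 0.15. With the labelled control array first, they read 144 and 150, 94.5 and 102, and 176 and 195. Hence the probe sets that name ARPC4 alone disagreed, with 217817_at level between the arrays and 217818_s_at higher on the labelled PGR siRNA array. Which transcripts each probe set binds was not tested.

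ARPC3, a peripheral subunit next to ACTR3, had the largest difference among the subunits by the brightest probe set. It read 9077 on the labelled control array and 10628 on the labelled PGR siRNA array, 1.17-fold higher at 0.23. It has 1 probe set only. ARPC5, a subunit that links ARPC1 to the rest of the complex, was the 1 gene with a lower value by its brightest probe set, at 7260 and 6875 (-0.08). Its probe set 1555797_a_at read 3280 and 3082, or -0.09. The remaining ARPC5 probe set, 1569325_at, read 74.9 and 44.4, both under the floor.

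WASL, also called N-WASP, was the member whose probe sets disagreed most. The brightest, 224813_at, read 4685 on the labelled control array and 4773 on the labelled PGR siRNA array, a difference of 0.03. Probe set 205809_s_at read 574 and 403, 1.42-fold lower at -0.51. Probe set 205810_s_at read 135 and 19.4. Its value on the labelled PGR siRNA array is under the floor, so it was at least 1.38-fold lower with that value raised to the floor, and its difference of -2.73 has no exact size. Probe set 230340_s_at read 64.2 and 3.29, both under the floor. All 3 probe sets of WASL other than the brightest were thus lower on the labelled PGR siRNA array, all 3 carry the suffix that the array's maker gives to probes shared between transcripts, and the brightest, without that suffix, was level.

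Because of these probe sets, the value for WASL depended on how the gene was summarised. The mean of all 4 probe sets was -1.79, past 1.5-fold, and the mean of the 2 with both values past the floor was -0.24, under 1.5-fold. The probe sequences were not used here, so the part of the transcript that each probe set reads was not tested.

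WASF2, also called WAVE2, had higher values on the labelled PGR siRNA array for each of its 3 probe sets, and none carries a suffix for shared probes. They read 1849 and 2154 (0.22), 1031 and 1294 (0.33), and 314 and 335 (0.09). All 3 were under 1.5-fold. Of the 6 genes with several probe sets past the floor on both arrays, ACTR3, ARPC2 and WASL had differences of both signs among those probe sets, and ARPC4, ARPC5 and WASF2 had 1 sign.

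With no replicate arrays, the scatter of probe sets of like signal is the only yardstick for differences of this size. It describes these arrays and includes any real differences between the cultures. For each of the 19 member probe sets with both values past the floor, the 1000 probe sets nearest in mean signal were taken. Their differences had an SD of 0.16 at the signal of the brightest probe set of ARPC2 and of 0.37 at that of ACTR3 probe set 228603_at, so the scatter widened as signal fell. The member probe sets lay inside the middle 95% of those differences in 17 of 19 cases. The 2 outside were ACTR3 probe set 213102_at, at -0.44 against a lower edge of -0.39, and ARPC4 probe set 217818_s_at, at 0.44 against an upper edge of 0.40. In both genes the brightest probe set lay inside. WASL probe set 205809_s_at, at -0.51, also lay inside, with a lower edge of -0.60.

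**Figure D2:**
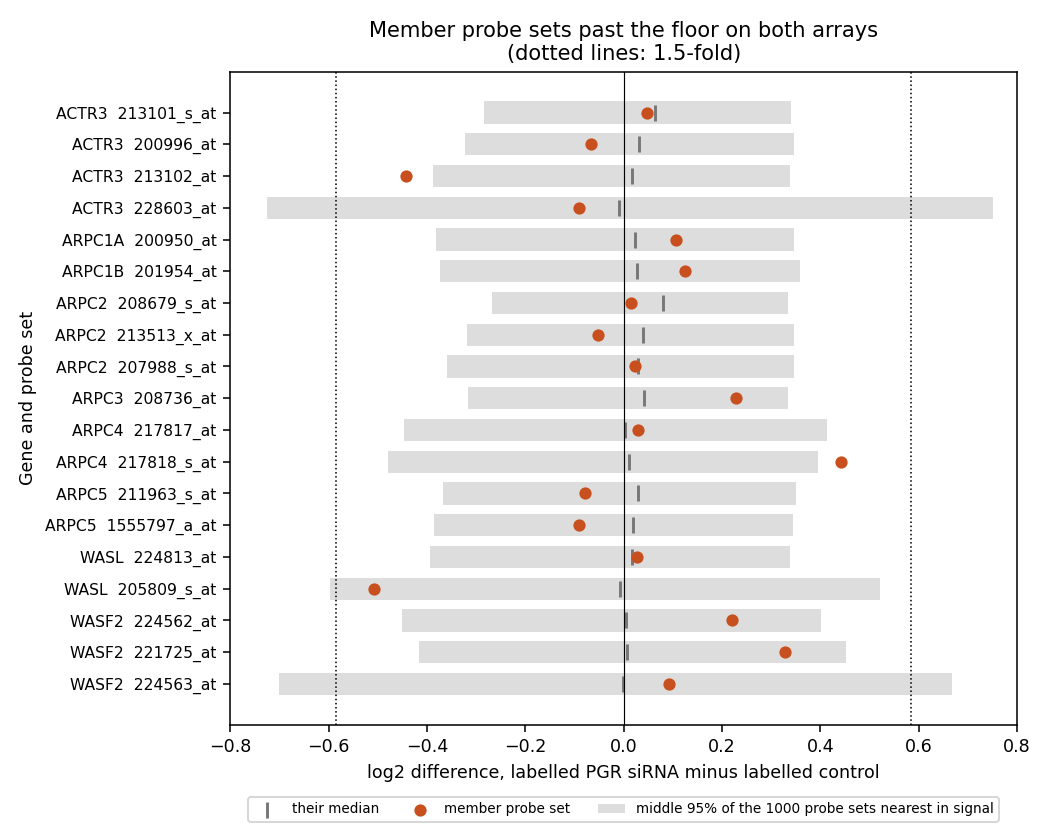
Log2 difference (labelled PGR siRNA array minus labelled control array) of the 19 member probe sets past the floor on both arrays (orange points), with the middle 95% (grey bars) and the median (ticks) of the 1000 probe sets nearest in mean signal. All but 2 points lie within their bars, and none reaches the dotted lines at 1.5-fold.

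Bright probe sets as a group read slightly higher on the labelled PGR siRNA array. The median of the 1000 nearest probe sets was 0.079 at the signal of the brightest ARPC2 probe set and 0.064 at that of ACTR3, larger than the members' own differences of 0.01 and 0.05. With that median subtracted, ARPC2 stood at -0.06 and ACTR3 at -0.02, ARPC5 at -0.11, WASL at 0.01 and ARPC4 at 0.03. ARPC3 stood at 0.19, WASF2 at 0.22, ARPC1B at 0.098 and ARPC1A at 0.083. The 9 genes then split into 6 above and 3 below their neighbours in signal, and the 19 probe sets into 9 above and 10 below. As deposited, 8 of the 9 genes had a positive sign, beside 53.2% of all 11614 genes. Loess left 5 of 9 positive and quantile normalization 6 of 9, with ACTR3 and ARPC2 turning negative under both. The signs of ACTR3, ARPC2 and WASL therefore carry no direction. The other 6 genes kept their sign under both scalings, at differences that lay inside the middle 95% of probe sets of like signal by the brightest probe set, so their signs are given as values only.

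**Figure D3:**
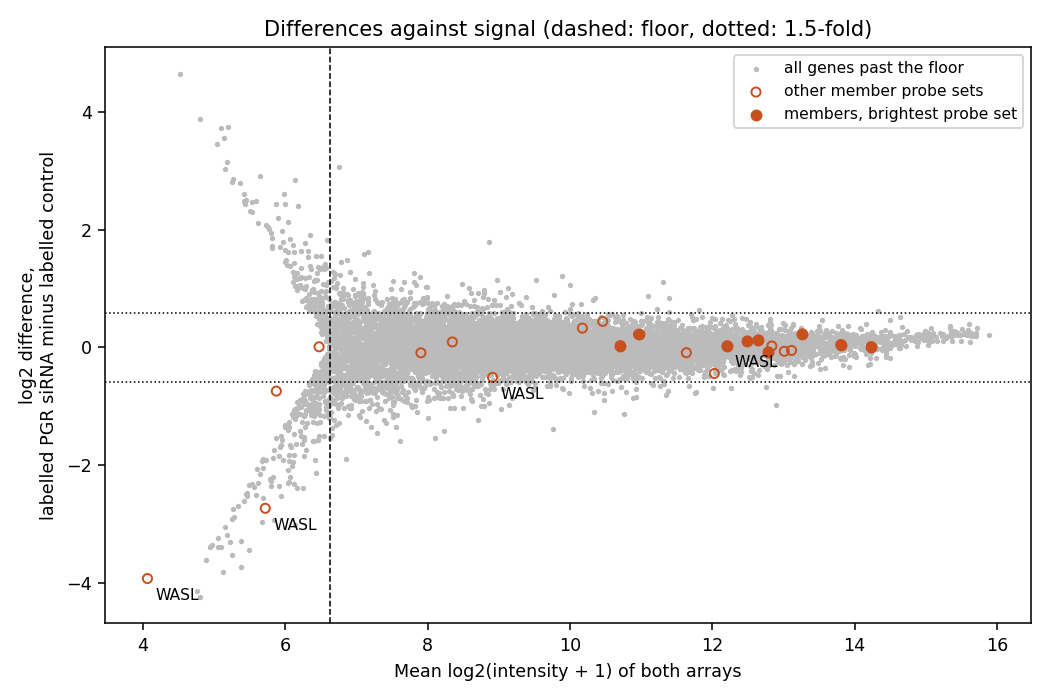
Log2 difference (labelled PGR siRNA array minus labelled control array) against mean log2(intensity + 1), with all 11614 genes past the floor in grey, the brightest probe set of each of the 9 members as filled points and their other probe sets as open points. The members' filled points lie in the narrow, bright part of the cloud. The open points of WASL at low signal lie at -2.73 and -3.93, with a mean signal below the floor. Grey genes with so low a mean passed the floor on 1 array only, so small differences cannot appear there and the cloud gives no scatter for them.

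By single probe sets, 20 of the 23 passed the floor on at least 1 array, 19 of them on both. Of these 20, 1 was at least 1.5-fold lower by the values as read, WASL probe set 205810_s_at, and 0 were at least 1.5-fold higher. With its value under the floor raised to the floor, that probe set was at least 1.38-fold lower, a bound under 1.5-fold. Among all 21528 probe sets past the same filter the shares were 6.21% lower and 4.61% higher, so 1 of 20 is near the background. Where both values had to pass, 0 of 19 member probe sets were past 1.5-fold in either direction, beside 3.23% lower and 2.21% higher of 19569. Probe sets of the same gene with both values past the floor differed among themselves by an SD of 0.26 over 5203 genes, as a description of disagreement within these arrays. Among such probe sets WASL had the widest range, from -0.51 to 0.03. The highest and lowest values lay 0.49 apart for ACTR3, 0.41 for ARPC4, 0.24 for WASF2, 0.076 for ARPC2 and 0.012 for ARPC5.

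The genes that act on the complex were taken from lists by role, 44 genes besides the members, of which 33 passed the floor. Of these 33, 1 reached 1.5-fold upward and 2 downward, beside 3.65% and 4.72% of all genes, and their median was -0.076. Of the alternative subunits, ACTR3B, a paralog of ACTR3, differed by -0.27, with its other probe set at 0.21, ACTR3C by -0.15 and ARPC5L, a paralog of ARPC5, by 0.01. None was past 1.5-fold. The other activators WAS, WHAMM and JMY read -0.41, -0.15 and -0.07 by their brightest probe sets, with another of JMY at 0.11, and WASF3 was under the floor on both arrays.

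Upstream of WASL, CDC42 read 2376 on the labelled control array and 2394 on the labelled PGR siRNA array, a difference of 0.01 by its brightest probe set. Of its 5 probe sets, the 3 past the floor ran from 0.01 to 0.06. The study reports lower CDC42 after PGR knockdown from its mRNA array and, for protein, from western blots. It also reports less active CDC42 by immunofluorescence, a reporter response of the CDC42 promoter to PGR, and binding of tagged PGR there. Why the CDC42 array values here differ from the study's own report of its mRNA array was not tested. Among 8 measured partners of WASL none was past 1.5-fold. The lowest was WIPF2, which binds and steadies WASL, at -0.34, and its probe sets spanned -0.34 to 0.19, and the highest was the adaptor NCK2 at 0.17. On the side of WASF2, none of the 6 measured genes was past 1.5-fold. RAC1 differed by 0.17 by its brightest probe set, and its probe sets spanned -0.01 to 0.44. By their brightest probe sets the WAVE complex subunits CYFIP1, CYFIP2, NCKAP1 and ABI1 read -0.14, -0.09, -0.13 and -0.38, and WASF2 itself 0.22. Another ABI1 probe set read -0.13. BRK1, the smallest subunit, read -0.01 by its brightest probe set and 0.44 by the other. In the WASH complex, which drives ARP2/3 on endosomes, the 4 measured subunits ran from -0.31 for WASHC5 to 0.14 for WASHC3.

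The genes past 1.5-fold in these lists, 1 upward and 2 downward of 33, were all among the inhibitors and debranching factors. Over the 33 genes these counts are near the shares of 3.65% and 4.72% of all genes. Within that role they are 1 upward and 2 downward of 8 genes past the floor, above those shares. The list is short and the genes past 1.5-fold are faint, so no conclusion about the role is drawn. PICK1, a scaffold reported to restrain ARP2/3, read 233 on the labelled control array and 135 on the labelled PGR siRNA array (-0.78), and CORO1A, a coronin of leukocytes that binds ARP2/3, read 223 and 142 (-0.65). Each has 1 probe set. Both were fainter than ACTR3 probe set 228603_at, at whose signal the middle 95% of differences ran from -0.73 to 0.75. The scatter at the signal of PICK1 and CORO1A themselves was not taken. CORO2A, another coronin, read 44.4 and 140 (1.64). Its value on the labelled control array is under the floor, so it was at least 1.43-fold higher, which is under 1.5-fold. The other coronins and GMFB, a debranching factor, lay between 0.06 and 0.19 by their brightest probe sets, ARPIN, an inhibitor of ARP2/3 at lamellipodia, at -0.07, and CTTN, cortactin, which steadies branches, at 0.07. Averaged over every probe set, the genes at least 1.5-fold lower were ABI1, ARPIN, CORO1A, GRB2 and PICK1, and the gene at least 1.5-fold higher was CORO1B. Of these, ABI1, ARPIN and GRB2 passed through a probe set under the floor on both arrays, and CORO1B through a probe set under the floor on the labelled control array. Averaged over the probe sets with both values past the floor, 0 genes reached 1.5-fold upward and 2 downward, CORO1A and PICK1.

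**Figure D4:**
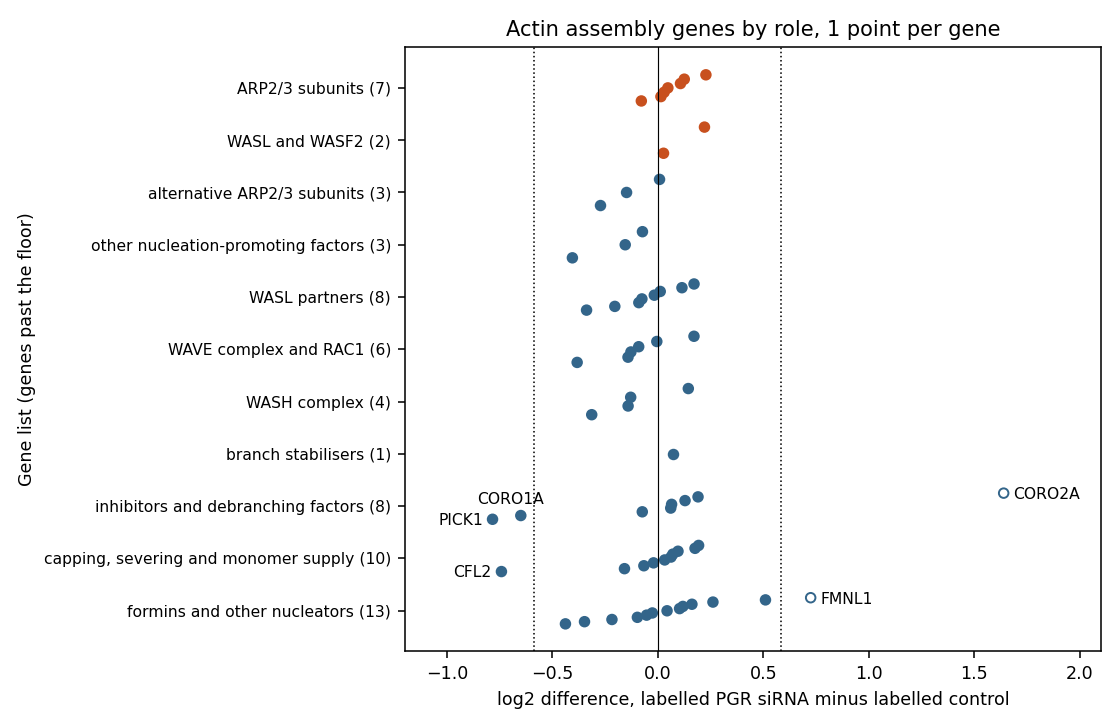
Log2 difference (labelled PGR siRNA array minus labelled control array) of each gene past the floor by its brightest probe set, grouped by role with the number of genes in brackets, with the members in orange and other genes in blue. Open points have 1 value under the floor, dotted lines mark 1.5-fold, and the members all lie between -0.08 and 0.23.

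PGR acts as a transcription factor, and its response element is built from the hexamer TGTTCT. Promoter windows from 250 bases before to 50 bases after a transcription start, taken from RefSeq on GRCh38.p14, were given for 8 of the 10 genes as 11 windows. The letters TGTTCT or their reverse complement AGAACA were in 0 of the 11, and in 14.8% of all 35116 windows. This says only that these letters are not in these windows.

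**Figure D5:**
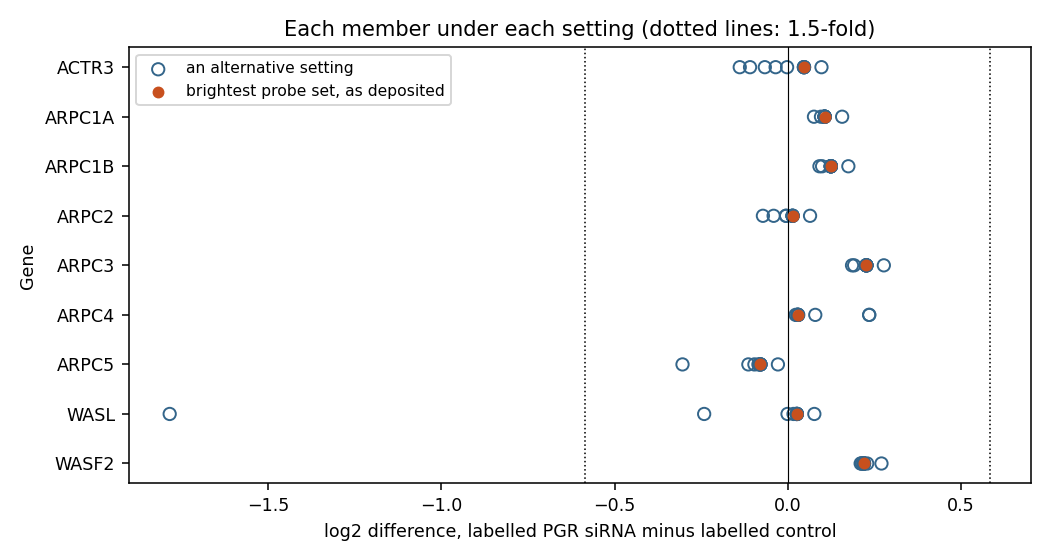
Log2 difference (labelled PGR siRNA array minus labelled control array) of each member by its brightest probe set as deposited (orange) and under each alternative setting (open blue circles), with 1.5-fold as dotted lines. Among the 9 genes, WASL alone passes 1.5-fold under any setting, at -1.79 when its 4 probe sets are averaged, and the others stay between -0.30 and 0.28.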

How the data were processed

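The members and lists were chosen with earlier results of these data known. Each condition of AsPC-1 cells was read on 1 array. Intensity values on a linear scale were deposited by the authors for each probe set. The sources used here do not give how they were summarised, background-corrected or scaled. The labels name DMEM as the medium and the methods of the study another one. The trimmed means, with 2% removed at each end, were equal, so overall brightness had been matched, while a trend with signal can remain.

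Differences were taken between values of log2(intensity + 1). Of 54675 probe sets, 41097 had 1 gene symbol in the platform annotation, 1801 several and 11777 none. Symbols were updated by gene identifier to RefSeq GRCh38.p14 for 41043. A gene was read by its brightest probe set and counted where the higher value reached the floor of 97.9. Nothing was tested, the number of arrays limits the precision, and 1.5-fold is a rule of size. All members were named, and of other genes those past 1.5-fold, the ends of each list, CDC42, RAC1 and PGR. Others in the lists were added after their values were seen. A likeness to other genes cannot be had from 2 arrays. Alternatives were other gene summaries, scalings, an offset of 16, other filters, 2-fold and counts by probe set. In simulated data of 11638 genes, with normal scatter sized to the typical difference at like signal, 94% of 50 genes changed 2-fold passed 1.5-fold. The changed genes were drawn only from those more than 2-fold above the floor. The share therefore does not cover genes near the floor, and the measured scatter widened as signal fell. Python 3.11.15, numpy 2.4.6, pandas 2.3.3, statsmodels 0.14.6 and matplotlib 3.10.9 were used.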

Additional observations from a re-analysis of the deposited data

How the results depend on the processing

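Of 12 alternatives, 10 give a difference for single members, as 88 values. Of these, 39 equal the value as deposited, mostly by construction, since the filters leave the brightest probe sets untouched and a gene with 1 probe set has 1 summary. Of the other 49, 47 moved by less than 0.26, the SD between probe sets of a gene, and 2 moved by more, WASL at -1.79 (mean of all probe sets) and -0.24 (mean of those past the floor on both arrays). The mean of all probe sets, and counting probe sets, each gave 1 member at least 1.5-fold lower, WASL, through values under the floor. The members' median ran from 0.023 with loess to 0.11 when all probe sets were averaged. Leaving out probe sets marked for shared sequence removed ARPC2 and ARPC5 except for a probe set under the floor, so that 7 genes were read. Of the other genes of branched actin assembly, the number at least 1.5-fold higher was 0 with the mean of probe sets past the floor on both arrays, with both values past the floor and with the floor at the 75th percentile, 2 by probe sets and 5 with no filter. The number at least 1.5-fold lower was 5 when all probe sets were averaged, 1 without marked probe sets, and 0 at 2-fold and with the floor at the 75th percentile. PGR, under the floor, differed by 1.66 as an average of its probe sets and 1.47 with the offset of 16, beside 2.12. The cause of these changes was not tested. No paired analysis was possible because each condition has 1 array and the labels give no replicate numbers.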

Other observations

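Genes that supply or trim filaments, and nucleators of unbranched filaments, were read in the same way. Of 10 genes of capping, severing and monomer supply, CFL2, a cofilin that severs filaments, reached 1.5-fold downward, beside 4.72% of all genes. It read 1986 on the labelled control array and 1187 on the labelled PGR siRNA array (-0.74), and its 3 probe sets ran from -0.74 to -0.44, all lower. Its paralog CFL1 read 18185 and 20543, a difference of 0.18. The other 9 genes ran from -0.16 for CAPZA2 to 0.19 for TMSB10. Of 13 formins and other nucleators past the floor, FMNL1 alone was past 1.5-fold, at 0.72, beside 3.65% of all genes upward. It read 79.2, under the floor, and 131, so it was at least 1.34-fold higher, which is under 1.5-fold. DAAM1, a formin, was lowest at -0.44, and another of its probe sets past the floor read 0.097.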
